A study of Homo sapiens with 16 samples.

Results

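The genes described here are 10 genes chosen as NF-kB targets and chemokines: the chemokines CXCL1, CXCL2, CXCL3, CXCL8, CXCL16 and CCL20, the NF-kB inhibitors NFKBIA and TNFAIP3, the NF-kB subunit RELB and the adhesion receptor ICAM1. They were matched by gene symbol to the Ensembl identifiers of the count files, and all 10 were found once among 54127 gene identifiers. RNA sequencing was available for 2 human colorectal cancer cell lines, HT55 and SW948, grown as adherent cultures. Each line was exposed for 6 days to 5 µM of itraconazole, an azole antifungal drug, or to DMSO, the solvent, as control. Each of the 4 combinations had 4 libraries, so that control HT55, treated HT55, control SW948 and treated SW948 gave 16 libraries in all. The groups differ in nothing else that the labels give, and each line is 1 genetic background. The study's methods call its replicates biological, the labels say no more of them, and the p-values below measure the spread between these libraries. The comparisons ask how each gene responded to the drug in each line, whether the lines responded alike, and how far the lines differed before treatment.

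NF-kB is a family of dimeric transcription factors held in the cytoplasm by inhibitory proteins such as the product of NFKBIA. Signals from cytokine and pattern-recognition receptors activate a kinase that marks the inhibitor for destruction, and the freed dimers enter the nucleus and switch on genes with kB sites. NFKBIA and TNFAIP3 are themselves targets and close the loop: the first rebuilds the inhibitor, and the second encodes A20, an enzyme that edits ubiquitin chains on signalling adaptors. RELB encodes the subunit typical of the noncanonical arm of the pathway. ICAM1 is the surface ligand of leukocyte integrins. CXCL1, CXCL2, CXCL3 and CXCL8 are the chemokines that draw neutrophils and bear a glutamate-leucine-arginine (ELR) motif, CCL20 draws cells that carry CCR6, and CXCL16 is made as a membrane-anchored chemokine that binds CXCR6. Chemokines and ICAM1 are also known members of the secretome of senescent cells.

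All 10 are protein-coding genes, placed on GRCh37 by the GENCODE annotation, with identifier, position and strand, as follows. The 4 ELR chemokine genes lie within 1 cluster on chromosome 4, as CXCL1 (ENSG00000163739, chr4:74735110-74737025, plus), CXCL2 (ENSG00000081041, chr4:74962757-74964913, minus), CXCL3 (ENSG00000163734, chr4:74902306-74904524, minus) and CXCL8 (ENSG00000169429, chr4:74606236-74609433, plus). The other members are CXCL16 (ENSG00000161921, chr17:4636828-4643223, minus), CCL20 (ENSG00000115009, chr2:228670455-228682280, plus), NFKBIA (ENSG00000100906, chr14:35870285-35873955, minus), TNFAIP3 (ENSG00000118503, chr6:138188351-138204451, plus), RELB (ENSG00000104856, chr19:45504719-45541450, plus) and ICAM1 (ENSG00000090339, chr19:10381769-10397291, plus). Counts were taken over whole annotated genes, so no exon or untranslated region is singled out.

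The promoters of these genes are shown first, because the members moved in different directions although several of them carry nearly the same sequence in front of their start sites. RefSeq windows (build GRCh38.p14) that run from 250 bases before to 50 bases after the start were at hand for 8 of the 10 members, all but CXCL16 and RELB. The lines below give the stretch around the kB-type match of each window, 5′ to 3′ on the strand of the gene, in capitals where the letters match the kB consensus on either strand. In the stretches of CXCL8 and ICAM1, whose windows had no consensus match, the capitals mark the shorter core GGAATTTCC on either strand, and in CXCL8 also TGACTCA, the core bound by activator protein 1 (AP-1).
CXCL1: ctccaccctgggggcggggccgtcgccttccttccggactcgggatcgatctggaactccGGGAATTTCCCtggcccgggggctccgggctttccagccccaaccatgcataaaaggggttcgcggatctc
CXCL2: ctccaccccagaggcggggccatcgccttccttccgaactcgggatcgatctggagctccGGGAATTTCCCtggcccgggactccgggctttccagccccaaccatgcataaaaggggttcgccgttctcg
CXCL3: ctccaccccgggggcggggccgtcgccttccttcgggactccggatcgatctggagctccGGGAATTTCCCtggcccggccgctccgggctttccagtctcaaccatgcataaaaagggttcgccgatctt
CXCL8: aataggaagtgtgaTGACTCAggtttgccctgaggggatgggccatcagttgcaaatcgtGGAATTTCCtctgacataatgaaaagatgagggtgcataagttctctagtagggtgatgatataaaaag
CCL20: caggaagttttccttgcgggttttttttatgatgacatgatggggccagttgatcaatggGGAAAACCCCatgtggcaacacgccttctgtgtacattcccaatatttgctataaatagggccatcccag
NFKBIA: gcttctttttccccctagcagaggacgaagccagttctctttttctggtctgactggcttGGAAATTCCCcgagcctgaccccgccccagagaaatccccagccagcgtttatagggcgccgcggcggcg
TNFAIP3: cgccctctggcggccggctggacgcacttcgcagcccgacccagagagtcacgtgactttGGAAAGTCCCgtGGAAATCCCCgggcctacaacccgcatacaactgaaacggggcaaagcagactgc
ICAM1: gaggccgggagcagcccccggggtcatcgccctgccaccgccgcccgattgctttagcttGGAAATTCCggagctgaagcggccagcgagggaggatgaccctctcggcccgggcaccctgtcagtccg

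The stretches lie at chr4:73869254-73869384 (CXCL1, plus strand), chr4:74099203-74099333 (CXCL2, minus strand), chr4:74038698-74038828 (CXCL3, minus strand), chr4:73740418-73740546 (CXCL8, plus strand), chr2:227813703-227813832 (CCL20, plus strand), chr14:35404761-35404890 (NFKBIA, minus strand), chr6:137867132-137867258 (TNFAIP3, plus strand) and chr19:10270874-10271002 (ICAM1, plus strand). In CXCL1, CXCL2 and CXCL3 the match reads the same kB element on both strands in overlapping positions, and the rest of the stretch is nearly the same in all 3. The full windows of CXCL1 and CXCL3 were identical at 82.5% of aligned positions, those of CXCL2 and CXCL3 at 73.7%, those of CXCL1 and CXCL2 at 69.8%, and no other pair of members exceeded 52.4%. The kB consensus occurred in 6 of the 8 windows and in 11.3% of the 35116 promoter windows of all genes. TNFAIP3 was the member with 2 separate consensus matches, at -67 to -58 and -55 to -46 from its start. The core GGAATTTCC, which overlaps the consensus, was found in 6 of 8 member windows (CXCL1, CXCL2, CXCL3, CXCL8, NFKBIA and ICAM1) and in 0.461% of all windows. TGACTCA was found in CXCL8 alone among the members and in 4.95% of all windows. The members were chosen as NF-kB targets and chemokines, and the windows of CXCL1, CXCL2 and CXCL3 are alike. The shares beside all windows are therefore no test. Both short cores were chosen after the windows had been read, and a match is a description of letters, not a measured binding site.

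**Figure D1:**
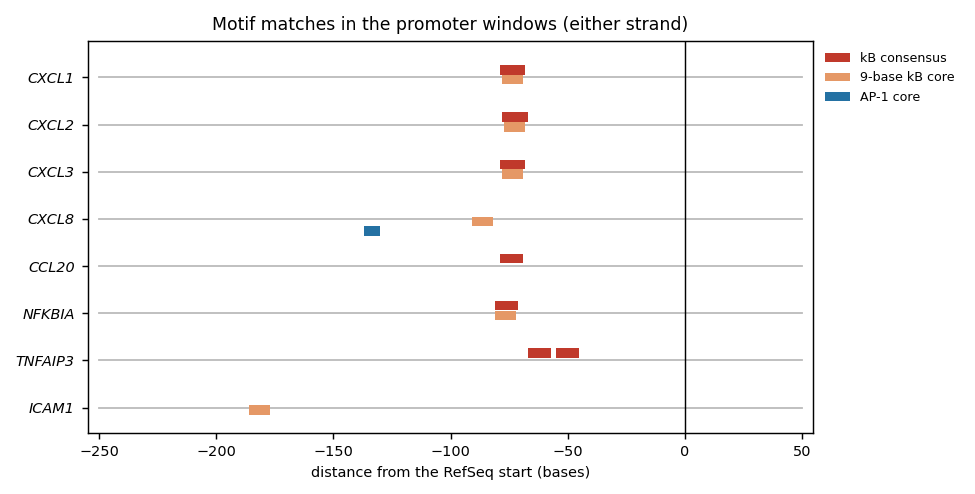
Matches of the kB consensus, the 9-base kB core and the AP-1 core in the promoter windows of 8 members, on either strand. The horizontal axis is the distance from the RefSeq start in bases and each row is 1 gene. The kB-type matches sit between -91 and -46 from the start in 7 genes and at -186 to -178 in ICAM1.

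Total counts in genes ran from 8269406 to 11110814 per library. Levels are given as counts per 1000000 gene counts (CPM), scaled by TMM (trimmed mean of M values), and a count of 0 in a library allows up to 3 counts, which is 0.27 to 0.363 CPM on plain totals. Markers of colorectal epithelium were present for 10 of 10 genes in each group, with summed levels of 9775 to 10060.4 CPM in control HT55, 11361 to 11999 in treated HT55, 6672 to 6966 in control SW948 and 8771 to 10992 in treated SW948. The 7 leukocyte markers summed to at most 0.763 CPM in any library, with CD3E and MS4A1 at 0 counts in all 16, and the 3 endothelial markers matched to at most 0.712 CPM. The 6 fibroblast markers summed to more than that in every library, and their sum was higher after treatment in both lines. In HT55 it was 1.41 to 2.13 CPM in control and 3.33 to 3.97 CPM in treated libraries. In SW948 it was 2.54 to 4.68 CPM in control and 9.94 to 12.1 CPM in treated libraries. COL3A1 had 0 counts in all 16. The part of these shifts in the results was not tested. These were bulk cultures, so a change in the share of expressing cells and a change in RNA per cell cannot be told apart.

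Itraconazole raised the NF-kB feedback genes, RELB, ICAM1 and CXCL16 in both lines. In SW948, 9 of the 10 members passed the test, of which 6 rose (ICAM1, RELB, TNFAIP3, NFKBIA, CXCL16 and CXCL1) and 3 fell (CXCL2, CCL20 and CXCL3), and CXCL8 did not pass. In HT55, 5 members had enough counts for the test, and all of these (ICAM1, NFKBIA, CXCL16, RELB and TNFAIP3) rose. These counts stand against a wide response of the whole transcriptome: 80.2% of 12505 genes tested were called in SW948, 38.9% higher and 41.3% lower, and 54.0% of 12133 in HT55, 27.5% higher and 26.5% lower (edgeR quasi-likelihood test, Benjamini-Hochberg adjusted p under 0.05). A call by itself is therefore common in these data, and the size and direction of each change carry more than the count. The median log2 fold change of the tested members was 0.90 in SW948 (10 members) and 0.95 in HT55 (5 members), beside -0.02 for all genes in each line. On plain library totals the median of all genes shifted to -0.35 in SW948 and -0.18 in HT55, and calls split into 25.1% higher and 54.6% lower in SW948 and 18.8% and 38.8% in HT55. No member changed direction or its side of the threshold in either line under that scaling.

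**Figure D2:**
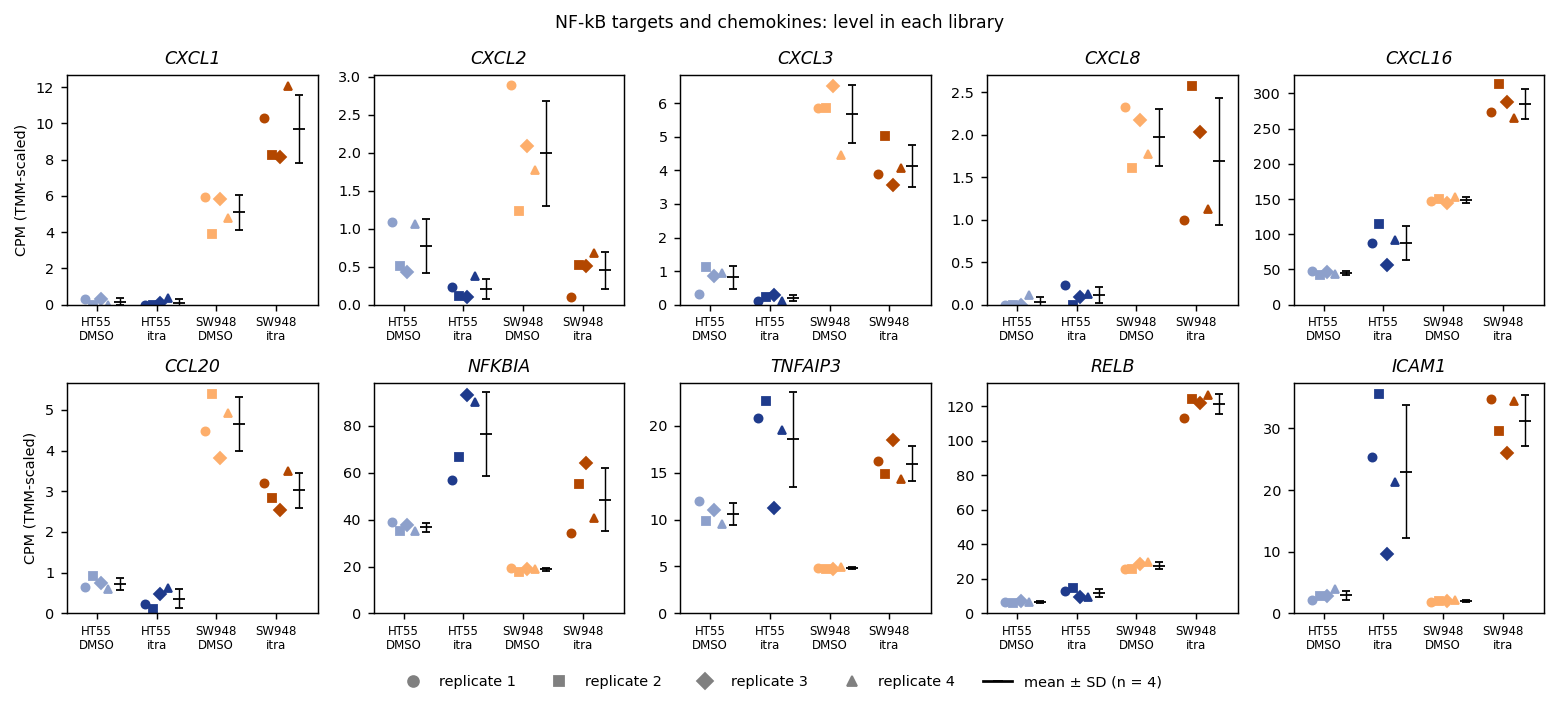
Level of each member in each library, as TMM-scaled CPM on linear axes that start at 0. Each panel is 1 gene, symbols are the 4 replicates of a group, and the black bar is mean ± SD. ICAM1 lay at 1.84 to 2.23 CPM in control SW948 and at 26.1 to 34.7 CPM after treatment, and CXCL8 stayed at 0 to 2 counts in every HT55 library.

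ICAM1 showed the largest increase of the 10. In SW948 it had 23, 22, 23 and 29 counts in the control libraries and 347, 230, 205 and 305 in the treated ones. The groups were far apart, and the level went from 2.04 ± 0.162 CPM (SD, n = 4) to 31.2 ± 4.15 CPM (SD, n = 4). The log2 fold change was 3.90 ± 0.142 (SE), or 14.9-fold with a 95% confidence interval from 12.1 to 18.4, with an edgeR adjusted p of 5.00e-11. By fold change it ranked 63 from the top among the 12505 genes tested. In HT55 the control libraries held 20, 28, 26 and 33 counts and the treated ones 214, 302, 101 and 171. Here too the groups did not overlap, as was the case for 49.4% of all genes tested in HT55 and 74.7% in SW948, but the treated libraries were spread widely, with replicate 3 the lowest at 9.60 CPM and replicate 2 the highest at 35.6 CPM. In HT55 the log2 fold change was 2.96 ± 0.375 (SE), or 7.78-fold with an interval from 4.38 to 13.8 and an edgeR adjusted p of 0.000131.

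RELB, the noncanonical subunit, was strongly raised in SW948. Its counts were 324, 271, 331 and 387 in control SW948 and 1129, 964, 958 and 1120 after treatment, a change from 27.5 ± 2.05 to 121 ± 5.91 CPM (SD, n = 4 each). The 4 treated libraries lay close together and far above the controls. RELB rose by 2.11 ± 0.0729 (SE) on the log2 scale, or 4.30-fold, with an edgeR adjusted p of 3.39e-11. HT55 started lower, with 59, 57, 67 and 54 counts in control and 110, 123, 101 and 78 in treated libraries. The lowest treated library of HT55, replicate 3 at 9.60 CPM, stood above the highest control at 7.10 CPM. RELB rose there by 0.86 ± 0.165 (SE) on the log2 scale, or 1.81-fold, with an edgeR adjusted p of 0.00154.

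Both inhibitors rose in both lines. NFKBIA counts were 244, 187, 218 and 246 in control and 343, 428, 504 and 361 in treated SW948, where the controls varied little and the treated libraries ran from 34.3 to 64.1 CPM. This increase was 1.33 ± 0.161 (SE) on the log2 scale, or 2.51-fold, with an edgeR adjusted p of 3.22e-06. In HT55 the counts of NFKBIA were 359, 343, 354 and 296 in control and 478, 564, 978 and 725 in treated libraries. All treated libraries were above the controls, and replicate 3, the lowest for ICAM1, was the highest for NFKBIA at 93.0 CPM. NFKBIA rose by 1.06 ± 0.147 (SE) on the log2 scale, or 2.08-fold, with an edgeR adjusted p of 0.000224.

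TNFAIP3, the A20 gene, had 61, 50, 55 and 64 counts in control SW948 and 162, 115, 145 and 127 after treatment. The controls agreed closely, at 4.73 to 4.93 CPM, and the treated libraries lay at 14.3 to 18.4 CPM. TNFAIP3 rose by 1.69 ± 0.124 (SE) on the log2 scale, or 3.22-fold, with an edgeR adjusted p of 2.19e-08. In HT55 its counts were 111, 96, 104 and 80 in control and 175, 192, 118 and 157 in treated libraries. Treated replicate 3, at 11.2 CPM, fell inside the control range of 9.48 to 12 CPM, so the groups overlapped through that library. The log2 fold change of 0.79 ± 0.199 (SE), or 1.73-fold, still passed the test with an edgeR adjusted p of 0.00677.

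CXCL16 made up most of the chemokine counts in every group: 94.7% of the counts of the 6 chemokine members in control HT55, 98.9% in treated HT55, 88.5% in control SW948 and 93.7% in treated SW948. Its counts in SW948 were 1842, 1589, 1657 and 1993 in control and 2727, 2430, 2268 and 2345 in treated libraries. The controls lay at 144 to 153 CPM and the treated libraries at 265 to 313 CPM, with no overlap. CXCL16 rose by 0.90 ± 0.0663 (SE) on the log2 scale, or 1.87-fold, with an edgeR adjusted p of 2.10e-08. In HT55 the counts were 440, 416, 438 and 363 in control and 739, 967, 593 and 740 in treated libraries. Replicate 3 was again the lowest treated library, at 56.4 CPM against at most 47.6 CPM in the controls. The log2 fold change of 0.95 ± 0.171 (SE), or 1.94-fold, had an edgeR adjusted p of 0.00102.

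**Figure D3:**
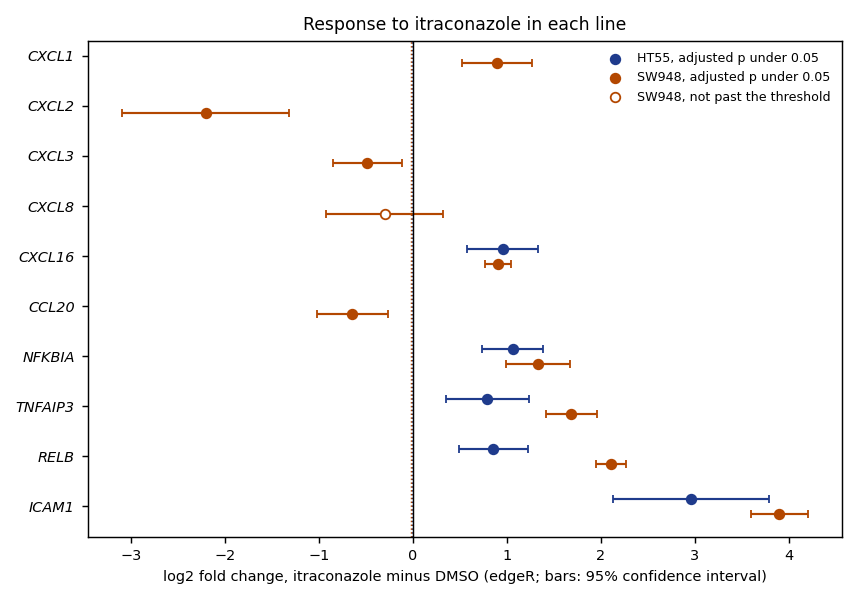
Log2 fold change of each member tested, itraconazole minus DMSO, in HT55 (blue) and SW948 (orange), from edgeR with 95% confidence intervals over 4 against 4 libraries. Filled points passed an adjusted p of 0.05, the open point did not, and dotted lines mark the median of all genes in each line. ICAM1 was the largest increase in both lines (2.96 and 3.90), CXCL2 the largest decrease in SW948 (-2.21), and CXCL8 had an interval from -0.93 to 0.32.

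The ELR chemokines did not move as a group in SW948. CXCL1 had 74, 41, 67 and 62 counts in control and 103, 64, 64 and 107 in treated libraries. On raw counts the groups overlapped, and on the CPM scale the treated libraries (8.13 to 12.1 CPM) stood above the controls (3.88 to 5.93 CPM). The log2 fold change was 0.90 ± 0.173 (SE), or 1.86-fold, with an edgeR adjusted p of 0.000274. CXCL2 had 36, 13, 24 and 23 counts in control and 1, 4, 4 and 6 in treated libraries. The groups did not overlap, and CXCL2 fell by 2.21 ± 0.414 (SE) on the log2 scale, which is 4.62-fold, with an edgeR adjusted p of 0.000215. CXCL3 had 73, 62, 75 and 58 counts in control and 39, 39, 28 and 36 in treated libraries. Its ranges touched on the CPM scale, where treated replicate 2 at 5.03 CPM exceeded control replicate 4 at 4.47 CPM, and it fell by 0.49 ± 0.170 (SE) on the log2 scale, or 1.40-fold, with an edgeR adjusted p of 0.0171. CXCL8, the interleukin-8 gene, had 29, 17, 25 and 23 counts in control and 10, 20, 16 and 10 in treated libraries. The groups overlapped, and its log2 fold change of -0.30 ± 0.291 (SE), with an interval from -0.93 to 0.32 and an edgeR adjusted p of 0.349, leaves both a decrease and a small increase possible.

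Because CXCL1, CXCL2 and CXCL3 are close paralogs that share stretches of sequence, they were also compared within each library, where the scaling cancels. The log2 ratio of CXCL1 to CXCL2 counts, with 0.5 added to each, was 1.38 ± 0.251 (SD, n = 4) in control and 4.46 ± 1.1 (SD, n = 4) in treated SW948, a difference of 3.08. For CXCL1 over CXCL3 the mean went from -0.16 ± 0.307 (SD, n = 4) to 1.21 ± 0.368 (SD, n = 4), a difference of 1.37, and for CXCL3 over CXCL2 it went from 1.54 ± 0.513 (SD, n = 4) to 3.25 ± 1.02 (SD, n = 4), a difference of 1.71. The treated libraries lay outside the control range in each of the 3 pairs computed, and the two-sided exact permutation p was 0.0286 in each, the smallest that 4 against 4 libraries can give. The pairs were chosen after the fold changes were known. Each ratio follows from the others, since they share counts, so the p-values are not separate results. Reads of near-identical stretches limit these genes: of the 50-base windows of their annotated exons, 27.8% in CXCL1, 41.7% in CXCL2 and 14.8% in CXCL3 had a copy elsewhere in the genome with at most 2 mismatches, and 25.6% of the CXCL1 windows had theirs in CXCL2. Entries with several alignments, 22.0% to 27.9% of those listed per library, were not counted in any gene. Whether an entry is a read or an alignment is not given. The share of exon windows with such a copy was 9.08% for CXCL16, 5.56% for CCL20, 3.60% for ICAM1 and at most 0.0819% for the other members.

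CCL20 followed CXCL2 and CXCL3. In SW948 it had 56, 57, 44 and 64 counts in control and 32, 22, 20 and 31 in treated libraries. The treated libraries ended at 3.50 CPM, just below the lowest control at 3.82 CPM. CCL20 fell by 0.65 ± 0.177 (SE) on the log2 scale, or 1.56-fold, with an edgeR adjusted p of 0.00411.

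In HT55 the same 5 chemokines were barely expressed and did not pass the filter on low counts, so they are given as counts. CXCL8 had 0, 0, 0 and 1 counts in the control libraries and 2, 0, 1 and 1 in the treated ones, and CXCL1 had 3, 0, 3 and 0 against 0, 0, 1 and 3. At this depth no difference was detectable for either gene, with two-sided exact permutation p of 0.371 for CXCL8 and 1 for CXCL1 on plain CPM. CXCL2 had 10, 5, 4 and 9 counts in control and 2, 1, 1 and 3 in treated libraries, 28 against 7 in all. CXCL3 had 3, 11, 8 and 8 against 1, 2, 3 and 1, or 30 against 7. For both genes the treated libraries were below the controls in CPM, and the unadjusted exact permutation p was 0.0286 on either scaling, the smallest this design can give. CCL20 had 6, 9, 7 and 5 counts in control and 2, 1, 5 and 5 in treated libraries, or 27 against 13, with the same exact permutation p of 0.0286 on plain totals and 0.0571 on TMM-scaled library sizes. Fitted without the filter, CXCL2 (log2 fold change -1.89, adjusted p = 0.0169) and CXCL3 (-1.99, adjusted p = 0.0097) passed the edgeR test and CCL20 (-0.99, adjusted p = 0.185) did not. The 4 ELR chemokines together had 65 counts in control and 22 in treated HT55, or 1.77 ± 0.246 and 0.628 ± 0.266 CPM (SD, n = 4 each).

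The lines were compared directly by the interaction of line and treatment on all 16 libraries, in which 53.9% of 13249 genes passed, 24.8% with a higher and 29.1% with a lower value in SW948. Of the 10 members, 3 passed, all with the higher value in SW948. One of them, CXCL3, did not pass the filter in HT55 alone and entered this fit through SW948, where it is expressed. The same holds for CXCL1, CXCL2, CXCL8 and CCL20, which did not pass the test. The response of RELB was greater in SW948 by 1.28 ± 0.167 (SE, log2, edgeR adjusted p = 3.55e-06) and that of TNFAIP3 by 0.92 ± 0.244 (SE, adjusted p = 0.00347). For CXCL3 the difference was 1.52 ± 0.519 (SE, adjusted p = 0.0181), which rests on the few HT55 counts given above and did not pass without control HT55 replicate 2 (1.31, adjusted p = 0.0528). The difference for ICAM1 was 0.97 ± 0.458 (SE), with a 95% interval from 0.01 to 1.93 and an adjusted p of 0.0818. It passed with the DESeq2 Wald test (adjusted p = 0.0354), without the filter (adjusted p = 0.000988) and without treated HT55 replicate 2 (1.27, adjusted p = 0.00956), so that call depends on the fit. For NFKBIA the difference was 0.30, with an interval from -0.19 to 0.79, and for CXCL16 -0.02, from -0.40 to 0.36, so each interval holds differences in both directions. CXCL1 (1.41, interval -0.86 to 3.68), CXCL2 (-0.29, -2.25 to 1.68), CXCL8 (-1.91, -4.48 to 0.66) and CCL20 (0.36, -0.55 to 1.28) had wide intervals, and HT55 held few counts of these genes.

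Before treatment the lines differed in most members, as they did in most genes: 84.2% of 12820 genes tested passed between control SW948 and control HT55, 42.6% higher and 41.6% lower in SW948. All 10 members passed, 7 higher and 3 lower in SW948, but CXCL1, CXCL2, CXCL3, CXCL8 and CCL20 entered the test through SW948, where they are expressed, and had to differ. Their log2 differences ran from 1.40 for CXCL2 to 5.67 for CXCL8. In plain counts CXCL8 had 94 in control SW948 and 1 in control HT55, a ratio of depth-scaled counts of 83.4 with an exact 95% counting interval from 14.6 to 3329.6, and CXCL1 had 244 and 6, a ratio of 36.1 with an interval from 16.3 to 99.3. Libraries of the groups did not overlap for 9 of the 10, nor for 78.8% of all genes tested. Of the members expressed in both lines, RELB was 4.29-fold higher in control SW948 (log2 2.10 ± 0.0967 SE, adjusted p = 4.16e-16) and CXCL16 3.32-fold higher (log2 1.73 ± 0.0492 SE, adjusted p = 2.73e-20). The inhibitors were lower in SW948, NFKBIA 1.95-fold (log2 -0.96 ± 0.0684 SE, adjusted p = 2.51e-12) and TNFAIP3 2.19-fold (log2 -1.13 ± 0.123 SE, adjusted p = 7.02e-09). ICAM1 was lower (log2 -0.51, adjusted p = 0.0276) with overlapping libraries. That call was lost on plain totals (-0.31, adjusted p = 0.159), with the DESeq2 Wald test (adjusted p = 0.0678), in a fit on all 16 libraries (adjusted p = 0.245), without control HT55 replicate 4 (-0.36, adjusted p = 0.136) and without control SW948 replicate 1 (-0.45, adjusted p = 0.07).

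Levels of different genes were compared as reads per kilobase of exon per 1000000 gene counts, on plain totals. CXCL16 ranked first in each group, at 16.5 ± 0.88 (SD, n = 4) in control HT55, 28.3 ± 6.56 in treated HT55, 62.6 ± 1.49 in control SW948 and 92.9 ± 5.32 in treated SW948. In control HT55 it was followed by NFKBIA (11.1), RELB (2.20), TNFAIP3 (1.69) and ICAM1 (0.87), with no overlap between neighbours down to ICAM1, which overlapped CXCL2 (0.565). CCL20 (0.468), CXCL3 (0.376), CXCL1 (0.121) and CXCL8 (0.0117) came last, each overlapping its neighbours. In treated HT55 ICAM1 moved to the third place (5.97 ± 2.60), overlapping RELB (3.54), which overlapped TNFAIP3 (2.60), and CXCL16 overlapped NFKBIA (20.7). The chemokines other than CXCL16 were all at or below 0.21 there. In control SW948 the order was RELB (10.8) and NFKBIA (6.5) after CXCL16, then CXCL1 (4.40), CCL20 (3.43), CXCL3 (3.0), CXCL2 (1.67), CXCL8 (0.893) and TNFAIP3 (0.88), each overlapping the next from CXCL1 on, and ICAM1 last at 0.694. In treated SW948 RELB (36.9) and NFKBIA (12.9) kept their places, ICAM1 (8.30) came next and overlapped CXCL1 (6.53), TNFAIP3 stood at 2.26, CCL20 at 1.74 overlapped CXCL3 at 1.70, and CXCL8 at 0.587 overlapped CXCL2, the last at 0.29.

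The rest of the pathway was read from 9 lists, with the 10 members left out. Of the other NF-kB subunits and IkB proteins, 5 of 8 tested rose and 1 fell in HT55, and 5 of 9 rose and 1 fell in SW948. These and the counts below stand against 27.5% of all genes higher and 26.5% lower in HT55, and 38.9% higher and 41.3% lower in SW948. REL rose most in HT55 (log2 0.86, adjusted p = 0.00229) and BCL3, an IkB-like coactivator, in SW948 (1.72, adjusted p = 1.59e-06). The gene that fell in HT55 was NFKBIZ (-0.44, adjusted p = 0.0361), outside the naming rule and named after its value was seen, and in SW948 it was NFKB1, which encodes the precursor of an NF-kB subunit, (-0.74, adjusted p = 1.25e-06). Of the IKK and adaptor kinases, 6 of 13 rose and 1 fell in HT55, and 7 of 13 rose and 3 fell in SW948. IKBKB, the catalytic kinase of the canonical arm, fell in both lines (-0.59 in HT55, adjusted p = 0.00748, and -1.78 in SW948, adjusted p = 1.04e-09), while IRAK2 rose most in HT55 (0.83, adjusted p = 0.00153) and RIPK2 in SW948 (1.43, adjusted p = 1.77e-07). Adaptors and ubiquitin regulators rose in 7 and fell in 2 of 17 in HT55, and rose in 12 and fell in 5 of 17 in SW948. Among them TNIP2, which binds A20, rose most in HT55 (0.81, adjusted p = 7.79e-05) and BIRC3, a ubiquitin ligase, in SW948 (1.46, adjusted p = 8.64e-10). TRAF5 fell most in HT55 (-0.92, adjusted p = 8.21e-06) and TRAF1 in SW948 (-1.31, adjusted p = 4.56e-05). In the other line TNIP2 also rose (1.275, adjusted p = 1.40e-07) and TRAF5 also fell (-0.62, adjusted p = 0.00576), both in SW948. In HT55 TRAF1 also fell (-0.57, adjusted p = 0.0167) and BIRC3 did not pass (0.31, adjusted p = 0.145). The medians of these 3 lists were 0.34, 0.22 and 0.28 in HT55 and 0.46, 0.23 and 0.53 in SW948, beside -0.02 over all genes.

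Upstream receptors rose in 6 and fell in 1 of 13 tested in HT55 and rose in 6 and fell in 5 of 13 in SW948, with medians of 0.19 and 0.13. Of all genes, 54.0% passed in HT55 and 80.2% in SW948, in either direction. The death receptor gene TNFRSF21 rose most in both lines (1.09 in HT55, adjusted p = 0.000117, and 1.5 in SW948, adjusted p = 1.02e-09). TLR3 fell in HT55 (-1.12, adjusted p = 0.000821) and TLR4 in SW948 (-2.50, adjusted p = 1.04e-07). Of 16 other chemokine ligands matched, 4 were tested in HT55, where CX3CL1, like CXCL16 a membrane-anchored chemokine, rose by 1.62 (adjusted p = 7.16e-05) and CXCL14, CCL24 and CCL28 did not pass, and 2 in SW948, where CX3CL1 fell (-1.02, adjusted p = 0.0289), with overlapping libraries, and CCL28 did not pass. The response of CX3CL1 thus had opposite signs in the lines, and the interaction was -2.61 ± 0.447 (SE, adjusted p = 7.16e-05). The medians were -0.08 in HT55 and -0.69 in SW948. Of 17 chemokine receptors, 1 passed the filter in each line and ACKR2, a scavenger receptor, rose in HT55 (1.41, adjusted p = 0.0044). Secreted cytokines rose in 4 and fell in 2 of 12 tested in HT55 and rose in 10 and fell in 3 of 14 in SW948, with medians of 0.25 and 0.55. The list holds 21 genes, and those tested in neither line included IL6, with 0 counts in each group. TNF had at most 5 counts in a group and CSF2 at most 6. IL1B, also not tested, had 16 counts in control and 31 in treated HT55, and 21 and 1 in SW948. IL18 rose most in HT55 (1.21, adjusted p = 0.00259) and IL15 in SW948 (1.82, adjusted p = 2.36e-07), while AREG fell in HT55 (-1.02, adjusted p = 0.00766) and IL33 in SW948 (-2.71, adjusted p = 1.28e-07). IL15 fell in HT55 (-0.42, adjusted p = 0.0138, interaction 2.27, adjusted p = 6.50e-08) and AREG rose in SW948 (0.98, adjusted p = 3.66e-06, interaction 2.04, adjusted p = 6.62e-06).

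Other NF-kB target genes rose in 13 and fell in 3 of 20 tested in HT55 and rose in 14 and fell in 5 of 22 in SW948, with medians of 0.37 and 0.61, where 54.0% and 80.2% of all genes passed in either direction. PLAU, the urokinase gene, rose most in both lines (3.43 in HT55, adjusted p = 0.002, and 3.38 in SW948, adjusted p = 2.05e-09), and LCN2, which encodes lipocalin 2, fell most in both (-1.09 in HT55, adjusted p = 0.00691, and -4.01 in SW948, adjusted p = 2.07e-11). In HT55 PLAU had 15 counts in all controls together, and went from 0.405 ± 0.175 to 4.48 ± 3.42 CPM (SD, n = 4 each). The AP-1 and early response genes rose in 6 and fell in 2 of 12 in HT55 and rose in 11 and fell in 1 of 14 in SW948, with medians of 0.49 and 0.96. MAFF rose most in HT55 (1.38, adjusted p = 0.000651) and FOSB in SW948 (3.21, adjusted p = 9.87e-09), and EGR1 fell in HT55 (-0.45, adjusted p = 0.00179) and was the gene that fell in SW948 (-0.61, adjusted p = 0.0204), where its libraries overlapped. CX3CL1, EGR1 and AREG in SW948 are outside the naming rule, and they and IL15 in HT55 were named after their values were seen. Each adjusted p here is from the edgeR test of the line, over all genes tested.

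**Figure D4:**
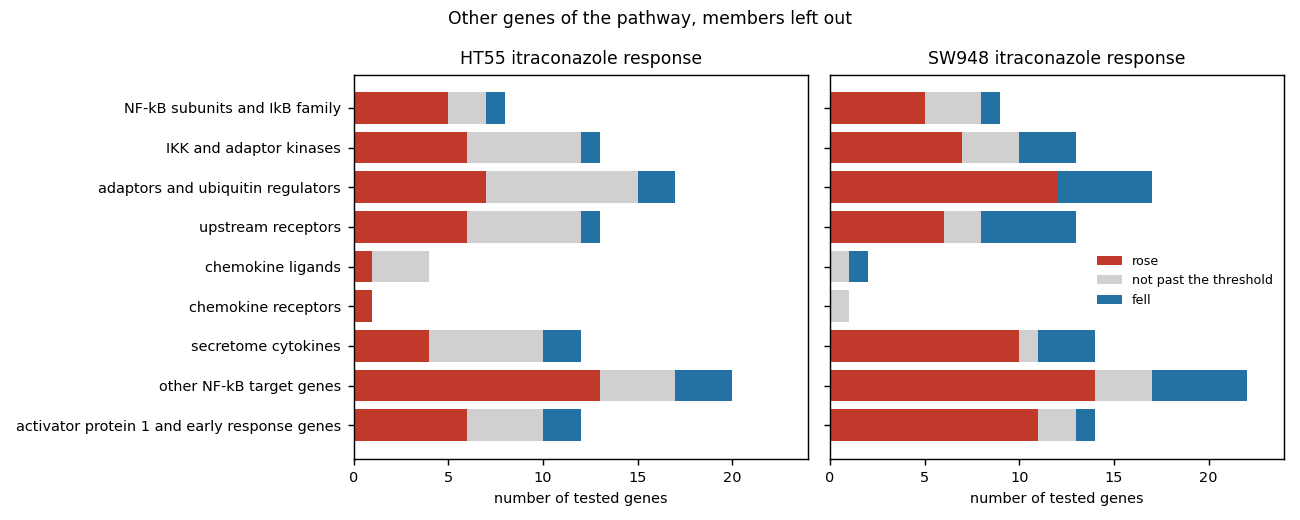
Number of tested genes in each of the 9 pathway lists that rose, did not pass or fell (edgeR adjusted p under 0.05), with the 10 members left out, in HT55 and in SW948. In both lines more genes rose than fell in the list of other NF-kB targets (13 against 3 and 14 against 5) and in the AP-1 list (6 against 2 and 11 against 1). Of all genes tested, 27.5% were higher and 26.5% lower in HT55, and 38.9% higher and 41.3% lower in SW948. In either direction 54.0% and 80.2% were called.

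Among 12908 other genes with enough counts, those whose 4 group means of log2 CPM came closest to the pattern of CXCL1, after centring, were IFITM3, PARVB and PAX6, with root mean square differences of 0.115, 0.116 and 0.144. For NFKBIA they were BCAR1 (0.0263), PER3 (0.0679) and SPINT1 (0.0869). The comparison has 4 points, and for CXCL1 the HT55 points rest on 6 and 4 counts.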

How the data were processed

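RNA was sequenced as single-end reads of 50 bp from 16 TruSeq libraries, and per the labels the authors aligned them to hg19; the submitters' notes name TopHat, HTSeq and DESeq without versions. The authors deposited raw counts per gene, 1 file per library, not normalised; the 5 lines of totals that follow the genes were left out of library sizes and tests. Reads with several alignments were counted in no gene, which lowers the values of genes with close copies. No library was pooled or dropped, and the annotation release and strand setting are not given in the sources used here.

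Counts were fitted per line with the quasi-likelihood test of edgeR 4.0.16 (R 4.3.3, TMM, filterByExpr by group, no covariate), the interaction on all 16 libraries and the controls on 8, each across all genes. Calls were made at a Benjamini-Hochberg adjusted p under 0.05, and the code was tested on simulated data. Few genes changed in that simulation, evenly up and down, so it did not test the scaling under a response as wide as this. Members below the filter were compared by two-sided exact permutation tests over 70 assignments of libraries. Symbols and exons came from GENCODE on GRCh37 and matched 47098 identifiers, which held 97.8% of counts; 170 of 177 list symbols and 26 of 27 marker symbols were matched. Promoter windows were RefSeq's (GRCh38.p14), matched by symbol for 8 members. From each list, up to 2 genes in each direction qualified (adjusted p under 0.05, mean of at least 1 CPM, groups not overlapping), and the first of each is named. The members and lists were chosen with earlier results of these data known.

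Gene counts per library ran from 8269406 to 11110814, and the intervals of count ratios and the floor of 3 counts cover counting error only, since reads carried no molecular identifiers. Alternatives were DESeq2 1.42.0 size factors and its Wald test, plain library totals, no filter, at least 10 counts in every library, the replicate number as a block, 1 fit on all 16 libraries and leaving out each library in turn.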

Additional observations from a re-analysis of the deposited data

Results flagged for a closer look

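The interaction test called 3 of the 10 members, beside 53.9% of 13249 genes tested. Their differences (SW948 minus HT55, log2) were 1.52 for CXCL3, 0.92 for TNFAIP3 and 1.28 for RELB. For RELB and TNFAIP3 both lines rose and SW948 rose more. For CXCL3 the log2 fold change was negative in both lines, at -0.49 in SW948 and -1.99 in HT55 fitted without the filter. The HT55 side rests on 30 counts in control and 7 in treated libraries. CXCL3 did not pass the filter in HT55 alone and entered the interaction fit through SW948.

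Of 40 sets of 4 libraries examined for a single distant value, 1 passed Dixon's limit. CXCL8 in control HT55 had 1 count in replicate 4 and 0 in the others, so the gap took the whole range (1.0). Chance flags about 1 in 20 such sets.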

How the results depend on the processing

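No member called in HT55 or SW948 lost its call or turned direction under any alternative run in which it was tested, leave-one-out included. Treated HT55 replicate 3 weighed on the whole fit of its line. Without it 7911 of 12263 genes were called, beside 6553 in the main fit and at most 6252 without any other HT55 library. The cause was not tested. With at least 10 counts in every library, CXCL2 in SW948 was no longer tested, so that 8 members were called there, and the count of members called between the control groups went from 10 to 5, since 5 members were no longer tested. The interaction value of CXCL16, which was not called, turned positive with DESeq2 size factors (0.0062), the DESeq2 Wald test (0.0044) and the replicate block (0.012), and ran from -0.20 to 0.13 with 1 library left out. That of CXCL2, also not called, ran from -0.59 to 0.11 with 1 library left out. Of the list genes named, EGR1 in HT55 lost its call in the fit on all 16 libraries (-0.45, adjusted p = 0.0753) and TRAF1 in HT55 without control replicate 2 (-0.48, adjusted p = 0.0667). NFKBIZ in HT55 lost its call with the DESeq2 Wald test (adjusted p = 0.0773), with no filter (0.0855), with the replicate block (0.0591) and without 6 of the 8 libraries in turn (adjusted p up to 0.105); EGR1 in SW948 with the DESeq2 Wald test (0.0904) and without control replicate 1 or 2 or treated replicate 4 (up to 0.0763), and CX3CL1 in SW948 without control replicate 3 or 4 or treated replicate 2, 3 or 4 (up to 0.0879); the cause was not tested.

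Replicate numbers did not pair the libraries in general: correlations of same-numbered deviations were 0.0079, 0.021, 0.14 and -0.04 in HT55 and 0.035, 0.0023, 0.13 and 0.056 in SW948. For number 3 they exceeded its highest correlation with a different number, 0.031 in HT55 and 0.026 in SW948. For the other numbers they did not. The cause was not tested. With the replicate block 6300 genes were called in HT55 and 9973 in SW948, and the members called stayed at 5 and 9 in number. In the interaction the block gave 4 members, with ICAM1 past the threshold (1.03, adjusted p = 0.0208).

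Ranks per kilobase used all exons; with the longest transcript the order was the same in 177 of 180 pairs of members within a group. Depth limits the 5 weakly expressed chemokines in HT55, where a few counts decide each value.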
